A study of Mus musculus with 49 samples.

Results

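DNA repair genes were followed in whole urinary bladders of mice that drank arsenate, a pentavalent inorganic arsenic salt. The list held 34 genes, namely 14 of base excision repair, 8 of nucleotide excision repair, 2 of mismatch repair and 10 of the sensing and joining of DNA breaks. Each gene was read from the probe set with the highest mean among those annotated to that gene alone. Neil2 had no such probe set, and the other 33 passed the filter on dim signals, among 14618 genes tested. Of these, 13 had 1 single-gene probe set and 20 had several. Neil3 was brighter than the 40th percentile in 17 of 49 arrays and Brca1 in 27, so both were dim in much of the series. Aplf, above it in 40 arrays, and Ung, in 42, were dim in some mice.

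The mice were female C57Bl/J adults given drinking water ad lib with 0, 0.5, 2, 10 or 50 ppm arsenate. Tissue was taken after 1 week, from mice aged 76 days, or after 12 weeks, from mice aged 155 days, and the 0 ppm mice, which drank water without arsenate, are called water mice. There were 5 mice in each of the 10 groups except 0.5 ppm at 1 week, which had 4. Each array held RNA from 1 mouse with no pooling, and p-values rest on the differences among these mice. The mice of any 1 group shared the first number of their mouse label, whose meaning the labels do not give, so dose and that number cannot be told apart. The 12-week mice were also older, so time on the study and age cannot be told apart.

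Base excision repair removes small damaged bases: a glycosylase cuts out the base, Apex1 nicks the strand, and a polymerase and a ligase fill and seal the gap. Nucleotide excision repair cuts out a longer stretch around bulky damage, mismatch repair corrects copying errors, and break repair senses and rejoins broken strands. Arsenic compounds are known to raise oxidative DNA damage and to interfere with repair enzymes, and the bladder is one of the organs in which they cause cancer.

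The urothelial marker Upk1b, with a mean log2 signal of 14.85, and the smooth muscle marker Acta2, with 15.28, were both bright. Values below are log2(signal + 16), a scale with a floor of 4. In RNA from a whole organ, fewer cells of a type and less RNA per cell cannot be told apart. The signal of the poly-A spikes, bacterial transcripts added as labelling controls, moved with dose at 12 weeks: its group mean was 10.81 in water mice and 10.43, 10.33, 9.76 and 9.95 at 0.5, 2, 10 and 50 ppm. At 1 week the group means lay between 10.77 and 11.17. With this signal as a covariate, the number of genes of the whole table called at 50 ppm and 12 weeks went from 594 to 1. The 12-week dose results below therefore stand beside a labelling control that differed between the groups, and its part in them was not tested beyond that covariate. Transcripts of liver genes moved with the groups at 1 week: the mean of 6 markers such as Alb was 9.27 ± 1.07 (SD, n = 5) in water mice, 8.58, 9.15 and 7.97 at 0.5, 2 and 10 ppm, and 7.17 ± 0.57 (SD, n = 5) at 50 ppm. At 12 weeks the group means were 6.75 to 6.99. Calls on the members' chosen probe sets, and on 1 further Lig3 probe set, are therefore also given with the liver marker level as a covariate, and some with the level of proliferation genes, both chosen after seeing the data.

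The promoters of 5 members on which the results turn are shown first, as the 250 bases before the transcript start in RefSeq, build GRCm38.p6, written 5′ to 3′ on the strand of the gene. Aplf had the only trend with dose that passed the test among the probe sets chosen for the members, Ercc5 and Neil1 differed in opposite directions between the harvests, and Msh6 and Ercc1 were the pair with the strongest negative correlation between mice. Capitals mark the GC box, GGGCGG or its reverse complement CCGCCC, and the CCAAT box, CCAAT or its reverse complement ATTGG.
Aplf promoter: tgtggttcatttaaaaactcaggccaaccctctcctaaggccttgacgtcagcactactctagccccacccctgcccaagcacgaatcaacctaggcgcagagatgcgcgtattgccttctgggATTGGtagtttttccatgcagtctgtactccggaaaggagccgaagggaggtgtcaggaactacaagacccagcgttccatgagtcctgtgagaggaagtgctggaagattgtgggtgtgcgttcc
Ercc5 promoter: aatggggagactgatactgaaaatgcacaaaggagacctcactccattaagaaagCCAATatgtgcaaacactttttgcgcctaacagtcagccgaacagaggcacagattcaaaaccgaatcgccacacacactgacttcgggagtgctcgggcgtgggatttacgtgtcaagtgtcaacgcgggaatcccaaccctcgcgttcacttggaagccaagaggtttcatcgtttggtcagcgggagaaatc
Neil1 promoter: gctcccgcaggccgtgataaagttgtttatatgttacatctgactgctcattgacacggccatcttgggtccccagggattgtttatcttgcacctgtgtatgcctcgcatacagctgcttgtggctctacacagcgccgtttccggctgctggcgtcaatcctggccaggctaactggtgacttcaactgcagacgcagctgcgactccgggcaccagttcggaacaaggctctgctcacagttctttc
Msh6 promoter: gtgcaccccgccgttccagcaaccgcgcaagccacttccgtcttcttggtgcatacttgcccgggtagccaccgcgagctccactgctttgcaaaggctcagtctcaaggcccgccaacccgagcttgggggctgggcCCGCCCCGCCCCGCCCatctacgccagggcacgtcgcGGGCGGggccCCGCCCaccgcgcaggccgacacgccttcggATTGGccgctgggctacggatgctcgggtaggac
Ercc1 promoter: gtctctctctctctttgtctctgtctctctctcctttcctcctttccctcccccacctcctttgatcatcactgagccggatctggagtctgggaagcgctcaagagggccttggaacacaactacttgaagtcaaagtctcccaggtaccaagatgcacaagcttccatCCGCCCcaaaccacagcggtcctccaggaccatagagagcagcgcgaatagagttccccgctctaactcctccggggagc
These stretches are chr6:87672162-87672411 on the minus strand for Aplf, chr1:44147494-44147743 on the plus strand for Ercc5, chr9:57148306-57148555 on the minus strand for Neil1, chr17:87974800-87975049 on the plus strand for Msh6 and chr7:19344821-19345070 on the plus strand for Ercc1. Msh6 held 5 GC boxes and 1 CCAAT box, Ercc1 held 1 GC box, Aplf and Ercc5 held 1 CCAAT box each, and Neil1 held neither motif. The stretch before Aplf also overlaps the gene E230015B07Rik. Of the 34 members, 26 had a promoter in the table, with 30 windows in all. A GC box stood in 43.3% of these windows and in 32.7% of all 32851 windows of the same length, and a CCAAT box in 53.3% against 33.8%. A match describes the letters only and is no evidence that a factor binds there.

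The first question was which repair genes differed between arsenate and water mice after 1 week. None of the 33 members tested had a limma adjusted p under 0.05 at 0.5, 2, 10 or 50 ppm, where 0.0479%, 0%, 0.78% and 0.335% of all genes did. At 50 ppm, 2 members, Fen1 and Neil1, had an unadjusted p under 0.05, which is 6.06% of the members against 11.6% of all genes. At the lower doses such members numbered 2 at 0.5 ppm against 12.5% of all genes, 2 at 2 ppm against 5.93% and 4 at 10 ppm against 17.1%. Over the dose ranks 0 members were called at 1 week, where 0.267% of all genes were.

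Neil1, a glycosylase that removes oxidised pyrimidines, had values of 9.06, 9.06, 9.14, 9.14 and 8.97 in the 5 water mice at 1 week (9.07 ± 0.07, SD, n = 5). At 50 ppm they were 9.39, 9.54, 9.31, 9.25 and 9.24 (9.35 ± 0.12, SD, n = 5). Every 50 ppm mouse lay above every water mouse, as was so, in either direction, for 2.52% of all genes. The difference was 0.27 ± 0.09 (SE), with a limma adjusted p of 0.219.

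Fen1, the flap endonuclease that trims the displaced strand in long-patch base excision repair and in replication, gave 9.83, 9.64, 9.20, 10.08 and 9.26 in the water mice. At 50 ppm it gave 9.63, 7.09, 8.99, 8.65 and 9.08. The groups overlapped, and mouse 2 at 50 ppm stood far below the rest. The difference of -0.91 ± 0.30 had an adjusted p of 0.201, and without that mouse it was -0.51. The other Fen1 probe set differed by 0.22 in the opposite direction.

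In the other classes the members with the smallest p at 50 ppm and 1 week were Xpa, Pms2 and Prkdc. Xpa, which verifies the damaged strand in nucleotide excision repair, was at 8.39, 8.47, 8.54, 8.30 and 8.58 in water mice and at 8.28, 7.27, 8.51, 7.78 and 8.90 at 50 ppm. The groups overlapped, with the 50 ppm mice both lowest and highest, and the difference was -0.31 ± 0.20 with an adjusted p of 0.596. Ercc5, the endonuclease XPG that cuts on the 3′ side of bulky damage, was at 7.85, 8.17, 7.65, 7.83 and 8.07 in water mice and at 7.55, 7.47, 7.53, 7.55 and 8.18 at 50 ppm. Of the 5 mice at 50 ppm, 4 lay below all water mice and mouse 5 above them, with a difference of -0.26 ± 0.17. Pms2, a subunit of the mismatch repair endonuclease, had values of 8.07, 7.95, 7.74, 7.71 and 7.96 against 7.72, 7.17, 7.93, 8.00 and 7.60. Prkdc, the catalytic subunit of the DNA-dependent kinase of end joining, had values of 8.25, 8.28, 8.06, 8.32 and 8.01 against 8.41, 8.34, 8.56, 8.41 and 8.27. Both overlapped between the groups, with differences of -0.20 ± 0.15 and 0.21 ± 0.13.

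Some members stood apart at the lower doses of 1 week without passing the test. At 0.5 ppm every mouse lay above the water mice for Msh6, the mismatch sensor, and for Xrcc5, the Ku80 subunit that holds broken ends, and below them for the glycosylase Neil3, that is 9.09% of the members against 6.76% of all genes. The differences were 0.37 ± 0.20 for Msh6, 0.38 ± 0.11 for Xrcc5 and -1.28 ± 0.34 for Neil3, with adjusted p of 0.468, 0.175 and 0.133. At 2 ppm only Parp1, the sensor of strand breaks, did not overlap, by 0.07 ± 0.07, against 1.61% of all genes, and at 10 ppm no member did, against 5.71%.

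One Lig3 probe set behaved differently from the one chosen for that gene. Lig3 is the ligase that seals the nick in short-patch base excision repair, and it has 5 single-gene probe sets, of which 1425865_a_at was singled out after its values were seen. At 1 week this probe set gave 7.49, 6.87, 7.52, 7.28 and 7.49 in water mice (7.33 ± 0.28, SD, n = 5) and 7.94, 7.99, 7.83, 8.10 and 8.19 at 50 ppm (8.01 ± 0.14, SD, n = 5). All 50 ppm mice were above all water mice. In a fit of all 27065 single-gene probe sets above the filter it rose by 0.68 ± 0.14, with an adjusted p of 0.00929, where 1.6% of probe sets were called. It was the single member probe set of 61 called there, and it was called in all 10 fits that left out 1 array, with changes of 0.56 to 0.73. With the poly-A signal as a covariate the change was 0.63 with an adjusted p of 0.0216. In the same comparison the liver markers had a median of -2.29, with Alb, Fga and Serpina1b called lower of 6, and with their level as a covariate the change of the Lig3 probe set was 0.78 ± 0.19 with an adjusted p of 0.0869. Between the doses it was at 7.94, 7.78, 7.46 and 7.83 in the 4 mice at 0.5 ppm, 7.59, 7.73, 7.67, 7.64 and 7.39 at 2 ppm, and 7.99, 7.86, 7.73, 7.66 and 7.99 at 10 ppm. Mice at 10 ppm were all above the water mice, and those at 0.5 and 2 ppm overlapped them. The slope over dose ranks was 0.15 ± 0.03 per rank, with an adjusted p of 0.0162 against 1.25% of probe sets called, 0.0561 without water mouse 2, and 0.24 with the liver covariate. The chosen Lig3 probe set differed by 0.14 ± 0.09 at 50 ppm. The other 3 gave 0.16, 0.52 and 0.29, the last with no array above the 40th percentile.

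**Figure D1:**
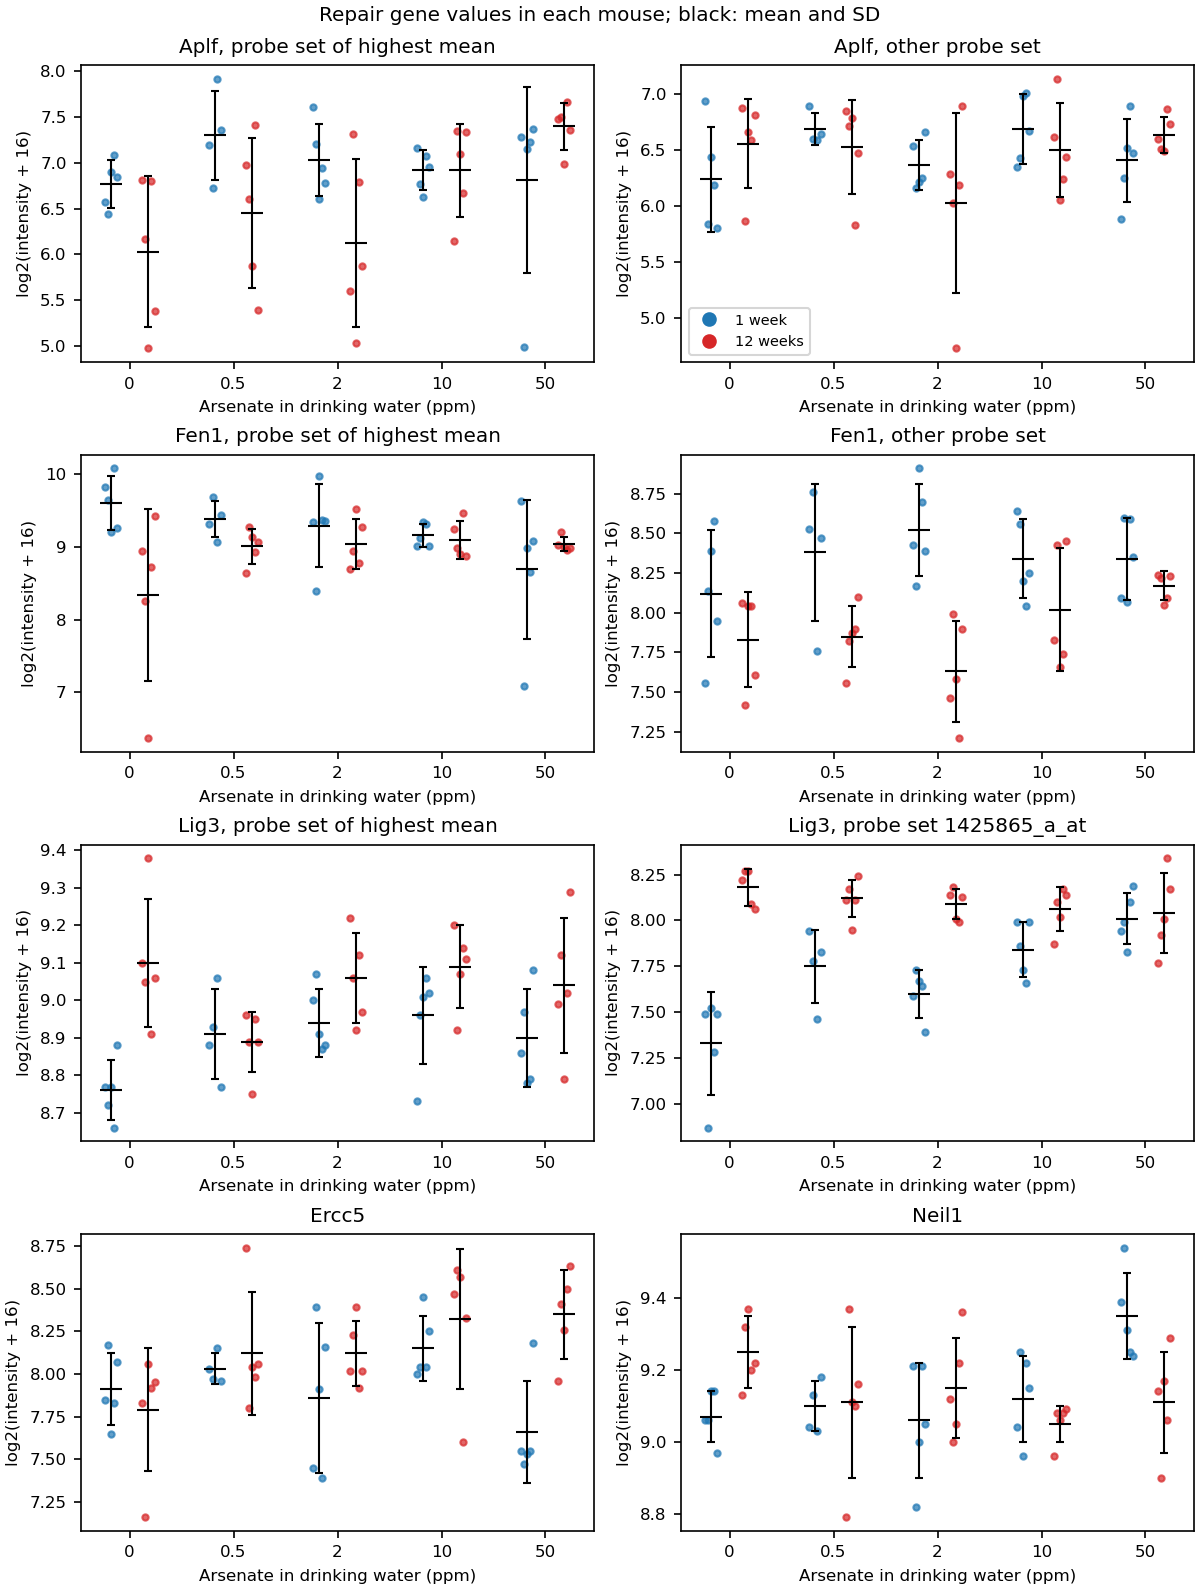
Log2(signal + 16) in each mouse against arsenate dose in ppm, with mean and SD in black, for both probe sets of Aplf and of Fen1, 2 probe sets of Lig3, and Ercc5 and Neil1, at 1 week (blue) and 12 weeks (red). Aplf at 12 weeks rises from 6.03 in water mice to 7.40 at 50 ppm in the probe set of highest mean against 6.56 and 6.64 in the other probe set, and a single 12-week water mouse at 6.37 lies far below the others for Fen1.

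After 12 weeks the same question gave 0 members with an adjusted p under 0.05 at each of the 4 doses, against 0.527%, 0.0137%, 0.335% and 4.06% of all genes at 0.5, 2, 10 and 50 ppm. Members with an unadjusted p under 0.05 numbered 4, 4, 10 and 8, against 19%, 9.91%, 16% and 24.1% of all genes. The 8 at 50 ppm are 24.2% of the members, near the background, and the 10 at 10 ppm are 30.3%. These 10 were Ogg1, Polb, Fen1, Aplf, Xpc, Ercc5, Ddb2, Pms2, Rad50 and Atm. Over the dose ranks, Aplf was the single member called, where 5.27% of all genes were.

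Aplf is a break repair factor that binds poly(ADP-ribose) and Ku and helps to recruit end-joining proteins. At 12 weeks its values were 6.81, 6.17, 4.97, 6.80 and 5.38 in water mice (6.03 ± 0.83, SD, n = 5) and 7.48, 7.50, 6.99, 7.67 and 7.36 at 50 ppm (7.40 ± 0.26, SD, n = 5). Every 50 ppm mouse was above every water mouse, and mouse 3 of the water group, at 4.97, was the lowest. In between they were 6.98, 6.61, 5.87, 7.41 and 5.39 at 0.5 ppm, 5.60, 7.32, 5.03, 6.79 and 5.87 at 2 ppm, and 6.15, 7.35, 7.10, 6.67 and 7.34 at 10 ppm, all overlapping the water mice. The change at 50 ppm was 1.37 ± 0.41 with a limma adjusted p of 0.0529, so it missed the threshold. It passed in 2 of the 10 fits that left out 1 array, without water mouse 1 or 4. Leaving out mouse 1 took the calls over all genes at 50 ppm from 594 to 1617. The Aplf slope was 0.32 ± 0.09 per dose rank, with an adjusted p of 0.0398. This slope was called in 12 of 25 fits that left out 1 array, and with the poly-A signal as a covariate it was 0.30 ± 0.14 with an adjusted p of 0.554. With the liver covariate it was 0.30 ± 0.09 with an adjusted p of 0.0594, and with the proliferation level 0.33 ± 0.10 with 0.043. The other Aplf probe set differed by 0.08 at 50 ppm and had a slope of 0.01. At 1 week the difference at 50 ppm was 0.04 ± 0.32, and 0.49 without mouse 2 of the 50 ppm group, which was at 4.99 against 7.15 to 7.37 in the other 4.

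Among the nucleotide excision genes at 12 weeks, the values of Xpa and Ercc5 were higher and those of Xpc lower at 50 ppm, none of them past the threshold. Xpa gave 8.57, 8.31, 8.53, 8.46 and 8.26 in water mice and 8.62, 8.98, 8.68, 9.06 and 8.86 at 50 ppm. The groups did not overlap, and the difference was 0.41 ± 0.15 with an adjusted p of 0.0959. Xpc, which first recognises distorted DNA, gave 9.97, 10.1, 9.98, 9.97 and 9.70 against 9.77, 9.67, 9.80, 9.72 and 9.60. These overlapped through water mouse 5, with a difference of -0.23 ± 0.09 and an adjusted p of 0.106. Ercc5 gave 7.83, 7.16, 8.06, 7.92 and 7.95 against 7.96, 8.41, 8.26, 8.50 and 8.63. Only 50 ppm mouse 1 lay within the range of the water mice, and the difference was 0.56 ± 0.20 with an adjusted p of 0.0869. The other 2 Xpa probe sets, above the 40th percentile in 22 and 0 arrays, differed by 0.62 and 0.37. The other Ercc5 probe set, above it in 0 arrays, differed by -0.02.

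In base excision repair, Apex1, the endonuclease that nicks the strand where a base has been removed, gave 11.29, 11.54, 11.47, 11.33 and 11.46 in water mice and 11.16, 11.20, 11.30, 11.19 and 11.17 at 50 ppm. The groups overlapped by 1 mouse, with a difference of -0.22 ± 0.09 and an adjusted p of 0.149, and its 3 probe sets gave -0.21 to -0.28. At 0.5 ppm the 5 mice, at 10.93, 11.21, 11.21, 11.13 and 11.05, all lay below the water mice, as 2.44% of all genes did (3.95% in either direction), and the difference of -0.31 ± 0.09 had an adjusted p of 0.081. Mutyh, a glycosylase that removes adenine mispaired with oxidised guanine, gave 7.06, 6.75, 6.86, 7.44 and 7.32 against 6.66, 6.69, 6.42, 6.67 and 6.35 at 50 ppm. These groups did not overlap, and the difference of -0.53 ± 0.23 had an adjusted p of 0.151. Mutyh, Aplf and Xpa were the members without overlap at 50 ppm, 9.09% of those tested against 5.85% of all genes. Fen1 was at 8.95, 8.26, 6.37, 8.72 and 9.42 in the water mice and at 9.03, 9.21, 9.0, 8.96 and 8.99 at 50 ppm. The difference of 0.69 ± 0.32 had an adjusted p of 0.182 and was 0.20 ± 0.19 without water mouse 3.

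At 12 weeks Rad50, the ATPase of the complex that senses broken ends, gave 8.68, 7.96, 8.12, 8.28 and 8.14 in water mice, 8.84, 8.78, 8.68, 8.42 and 8.56 at 10 ppm and 8.60, 8.51, 8.44, 8.50 and 8.61 at 50 ppm. Apart from water mouse 1, all water mice lay below all mice of both dose groups. The differences were 0.42 ± 0.13 at 10 ppm, with an adjusted p of 0.127, and 0.30 ± 0.13 at 50 ppm, with 0.168. Pms2 gave 8.14, 7.33, 7.14, 7.62 and 7.40 in water mice, 8.53, 7.84, 8.26, 7.86 and 8.07 at 10 ppm and 7.78, 7.83, 7.71, 7.79 and 8.43 at 50 ppm. The same water mouse 1 was the highest of its group, and the differences were 0.58 ± 0.19 (adjusted p of 0.141) and 0.38 ± 0.19 (adjusted p of 0.225). Without this mouse Rad50 and Pms2 were both called at 10 ppm, where the calls over all 14618 genes went from 49 to 331. Prkdc, at 8.41, 7.89, 8.43, 8.24 and 8.40 in water mice and 8.43, 8.00, 8.40, 8.72 and 7.95 at 50 ppm, overlapped, with a difference of 0.02 ± 0.15. At 10 ppm Ddb2, the sensor of ultraviolet damage, was above and Neil1 below all water mice, 6.06% of the members against 3.2% of all genes. At 2 ppm every member overlapped the water mice, where 2.1% of all genes did not.

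**Figure D2:**
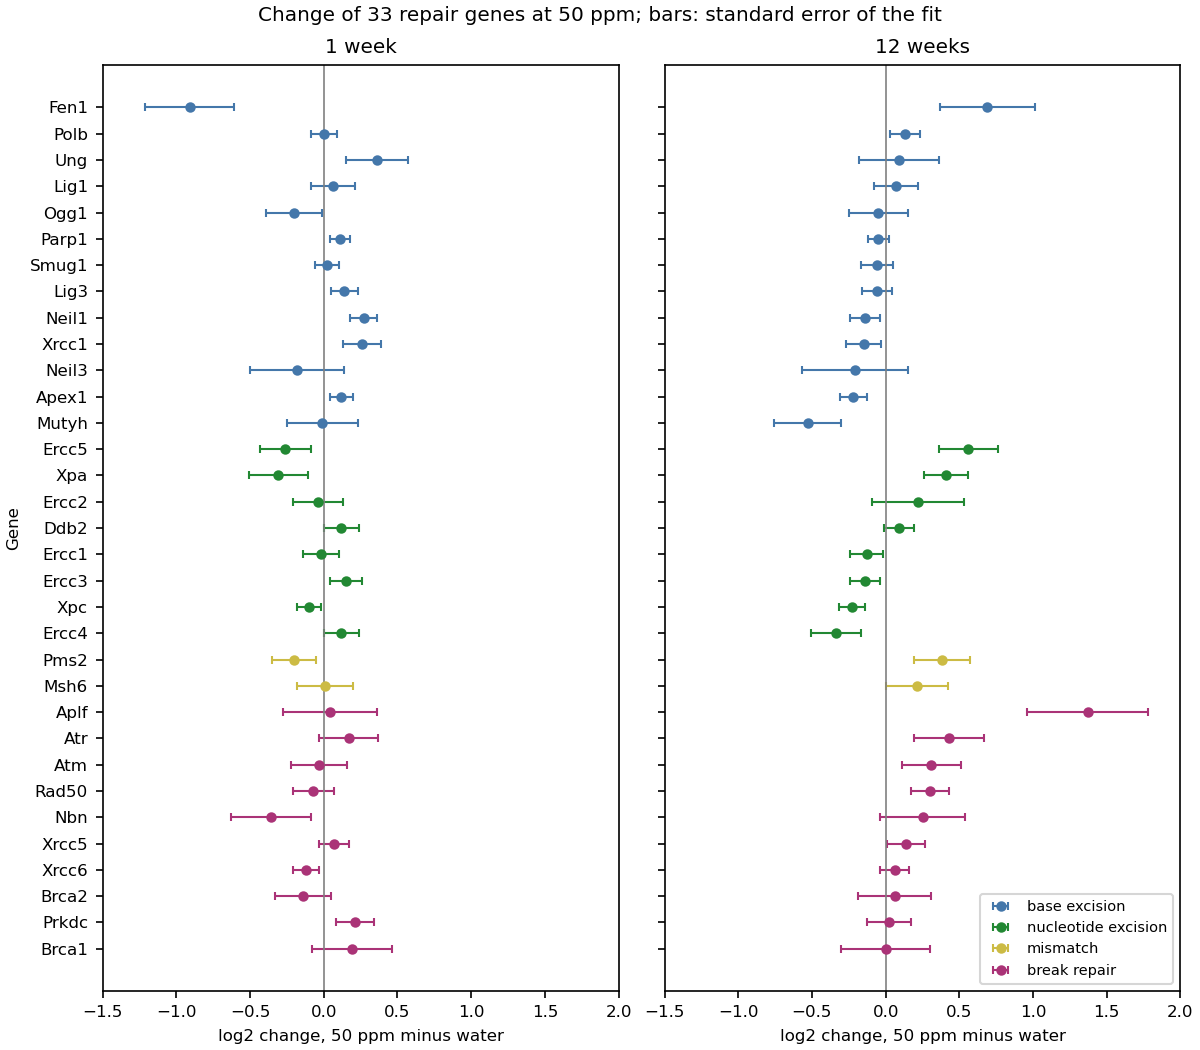
Change from water mice at 50 ppm, in log2 with its standard error, for the 33 members by repair class at 1 week and at 12 weeks. Aplf at 12 weeks, at 1.37, has the largest change and no member passes an adjusted p of 0.05 at either harvest.

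Compared by class, most break repair genes had estimates above 0 at 12 weeks, and most base excision genes had estimates below 0. All 10 break repair genes had a 50 ppm estimate at or above 0, from 0 for Brca1 to 1.37 for Aplf, with a median of 0.20 against -0.04 over all genes, of which 45.5% had an estimate above 0. Leaving out 1 array moved this median to between 0.08 and 0.33. Their medians at 0.5, 2 and 10 ppm were 0.19, 0.10 and 0.28, with 0.10 to 0.27, 0 to 0.20 and 0.18 to 0.34 when 1 array was left out, and 7, 6 and 8 of 10 were above 0, against 50.1%, 49.1% and 45.2% of all genes. Both mismatch genes were above 0 at 50 ppm, with a median of 0.30. Of the 13 base excision genes 4 were above 0, with a median of -0.06, and of the 8 nucleotide excision genes 4, with a median of -0.02. Averaged over its genes, the break repair class was at 7.69 ± 0.25 (SD, n = 5) in water mice and 7.99 ± 0.19 (SD, n = 5) at 50 ppm, ranges of 7.41 to 8.01 and 7.75 to 8.21 that overlap. Most break repair genes ran with the array median in log2 between mice, at r of 0.26 to 0.54. Aplf, Brca2 and Xrcc6 were at -0.06 to 0.06. That median was 6.449 in water mouse 2 and 6.734 to 6.778 in the other water mice. Its part in the class values was not tested beyond leaving out each array and other scaling. With the poly-A signal as a covariate the break repair median was -0.17 at 10 ppm and -0.02 at 50 ppm, and the mismatch median at 50 ppm was -0.01. The 4 dose groups of a harvest share their water mice, so their medians are not separate evidence. At 50 ppm the markers of smooth muscle, fibroblasts and endothelium also had higher medians, by 0.30, 0.26 and 0.33, as had the proliferation genes, by 0.29 with Pcna called, the basal urothelium, by 0.20, and skeletal muscle, by 0.21. Tie1 of the endothelium was called too. The markers of mesothelium and liver had medians of -0.26 and -0.19. With the proliferation or the liver level as a covariate, the 4 class medians at 50 ppm and 12 weeks moved by less than the SD of the class mean within groups. That SD was pooled over all groups. For break repair the SDs of the water mice and of the 50 ppm mice alone were 0.25 and 0.19. They are about as large as the median of 0.20. A median near 0 could thus still count as unmoved. The part of these levels and of the other lists was not tested beyond that. At 1 week the medians at 0.5, 2, 10 and 50 ppm were 0.24, 0.11, 0.30 and -0.09 for mismatch and 0.09, 0.14, 0.09 and 0.01 for break repair. Those for base excision were 0.11, 0.06, 0.05 and 0.06, and those for nucleotide excision 0.02, -0.04, 0.05 and -0.03. The medians of the mismatch and break repair genes at 0.5, 2 and 10 ppm were thus above 0 at both harvests, and the difference of the class medians between harvests was not tested.

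**Figure D3:**
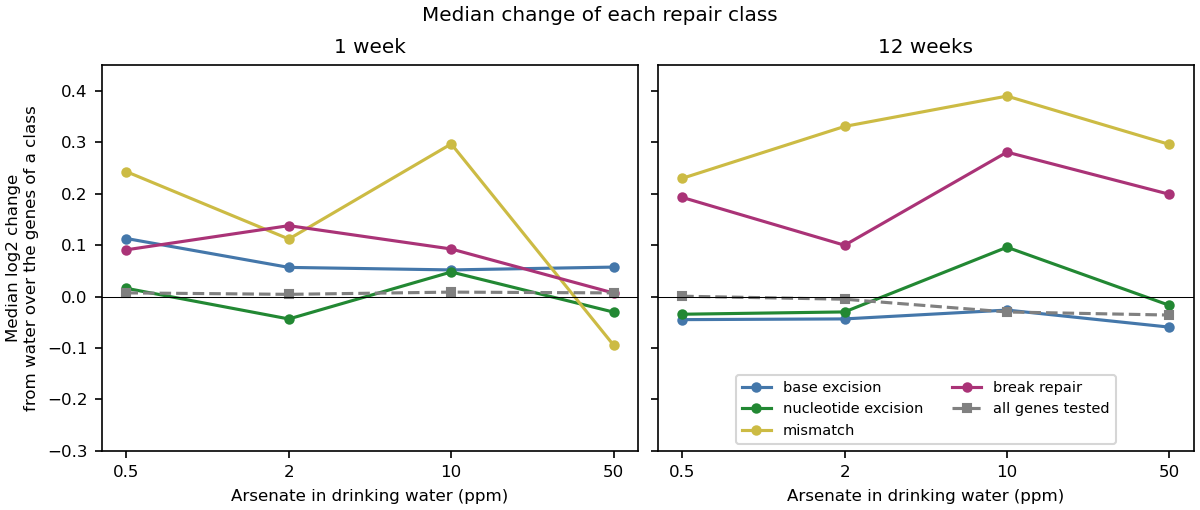
Median log2 change from the water mice of the same harvest in each repair class, against arsenate dose in ppm, at 1 week and at 12 weeks. At 12 weeks break repair lies between 0.10 and 0.28 and base excision between -0.06 and -0.03.

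In mice without arsenate, 3 repair genes differed between the harvests. Lig3 and Ddb2 were higher and Fen1 lower at 12 weeks than at 1 week, 9.09% of the members against 13.4% of all genes. The members without overlap were Lig3, Ddb2 and Parp1, against 9.53% of all genes. The values of Ddb2 were 8.76, 8.66, 8.49, 8.72 and 8.74 at 1 week and 9.24, 9.12, 9.16, 8.84 and 9.32 at 12 weeks, without overlap. It rose by 0.46 ± 0.10 with an adjusted p of 0.00197, and was called in all 10 fits that left out 1 array. Its other probe set rose by 0.36 ± 0.12, with an adjusted p of 0.0356 among all probe sets.

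Lig3 values were 8.77, 8.72, 8.77, 8.66 and 8.88 at 1 week and 9.10, 9.05, 9.38, 8.91 and 9.06 at 12 weeks, also without overlap. It rose by 0.34 ± 0.09 with an adjusted p of 0.00973, and by 0.27 with an adjusted p of 0.058 without 12-week water mouse 3. Its probe set 1425865_a_at, at 8.22, 8.27, 8.27, 8.09 and 8.06 at 12 weeks, rose by 0.85 ± 0.12 (adjusted p of 5.22e-06), and 1431715_a_at by 1.35 ± 0.25 (adjusted p of 0.000293), where 13.3% of probe sets were called. The 1-week water mice also served as the control of the 50 ppm result for 1425865_a_at, so both results share them. A further Lig3 probe set, 1437198_at, differed by -0.16 ± 0.17. In the fit of all probe sets above the filter, 9 of 61 member probe sets were called between the water groups. Among them were further ones of Polb, Ercc4 and Ercc1, at 0.64, 0.46 and 1.15.

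Fen1 fell by 1.26 ± 0.33 on the log2 scale, with an adjusted p of 0.0079. Its groups overlapped, and without 12-week water mouse 3 the change was -0.76 with an adjusted p of 0.0748. The other Fen1 probe set differed by -0.29. The same comparison had lower medians for the markers of fibroblasts, at -0.81 with 5 of 6 called, and of smooth muscle, at -0.37 with 3 of 9. Proliferation genes were at -0.58 with 7 of 25 called, and liver at -2.41 with 4 of 6. Skeletal muscle was at -0.71 with 3 called, leukocytes at -0.37 with 2 of 6, and endothelium at -0.28 with 1 of 5. Basal urothelium was at 0.29, and mesothelium at 0.13 with 1 of 4 called higher. The fibroblast level was not used as a covariate. With the liver level as a covariate none of the 3 members was called, at 0.41 for Ddb2, 0.33 for Lig3 and -1.61 for Fen1 (adjusted p of 0.126, 0.166 and 0.0514). With the proliferation level none was called either, at 0.38, 0.29 and -1.05 (adjusted p of 0.0532, 0.11 and 0.104). The Lig3 probe set 1425865_a_at was still called with both, at 0.95 and 0.92 (adjusted p of 0.00155 and 0.000109).

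The last question was whether the effect of 50 ppm differed between the harvests. The difference of the 2 effects was called for 3 members, Fen1, Ercc5 and Neil1, 9.09% of the members against 7.36% of all genes. At 0.5, 2 and 10 ppm no member was called, against 4.61%, 0% and 1.38%. For Fen1 the effect went from -0.91 at 1 week to 0.69 at 12 weeks, a difference of 1.60 ± 0.47 with an adjusted p of 0.0292. It rests in part on 12-week water mouse 3 and 1-week 50 ppm mouse 2, since without both arrays it was 0.71 with an adjusted p of 0.206, and it was lost in 4 of 20 fits that left out 1 array, those without either of these, 12-week water mouse 2 or 1-week water mouse 4. Ercc5 went from -0.26 to 0.56, a difference of 0.82 ± 0.27 with an adjusted p of 0.0476, and was called in 7 of 20 such fits. Neil1 went the other way, from 0.27 to -0.14, a difference of -0.41 ± 0.13 with an adjusted p of 0.0463, and was called in 5 of 20. Neil1 at 12 weeks was at 9.13, 9.32, 9.37, 9.20 and 9.22 in water mice and 9.14, 8.90, 9.17, 9.06 and 9.29 at 50 ppm, which overlap. With the poly-A signal as a covariate none of the 3 was called, at 1.42, 0.57 and -0.25. In the same comparison the proliferation genes had a median of 0.36, with Pcna, Rrm2, Tyms and Cdk1 called, the liver markers of 2.1, with 3 called, the fibroblast markers of 0.37, with Lum called, the mesothelium markers of -0.36 and the adipocyte markers of -0.59. With the proliferation level as a covariate Fen1 was at 1.46, Ercc5 at 0.85 and Neil1 at -0.41, none called (adjusted p of 0.0586, 0.0565 and 0.0613). With the liver level Fen1 was called, at 1.89 (adjusted p of 0.0263), and Ercc5 and Neil1 were not, at 0.79 and -0.40 (adjusted p of 0.0912 and 0.0835). The other Fen1 probe set differed by 0.12 ± 0.27, with effects of 0.22 at 1 week and 0.33 at 12 weeks. The other Ercc5 probe set, dim in all arrays, differed by -0.25.

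The Lig3 probe set 1425865_a_at also differed between the harvests. Its 12-week values at 50 ppm, 7.77, 7.92, 8.01, 8.34 and 8.17, overlapped those of the water mice. The effect thus went from 0.68 at 1 week to -0.14 at 12 weeks, a difference of -0.82 ± 0.17 with an adjusted p of 0.00357, where 7.09% of probe sets were called. It was called in all 20 fits that left out 1 array, and with the liver or the proliferation level as a covariate, at -0.90 and -0.86. At 10 ppm the difference was -0.64 ± 0.17 with an adjusted p of 0.0318 against 2.23% of probe sets, and it was lost in 8 of 20 such fits and with RNA integrity or the poly-A signal as a covariate (adjusted p of 0.0913 and 0.0661). With the liver or the proliferation level it was -0.69 and -0.63 (adjusted p of 0.0333 and 0.0335). In the fit of all probe sets, 5 of 61 member probe sets were called for the 50 ppm difference. Besides those of Lig3, Fen1 and Ercc5 they were 1445266_at of Ercc1, at -1.86 ± 0.56, and 1456079_x_at of Apex1, at -0.41 ± 0.13. Their limma adjusted p was 0.036 and 0.044, and Neil1 was not called in that fit (limma adjusted p of 0.0513).

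Repair genes that move with dividing cells were sought in the spread between mice of the same group. Lig1, the ligase that joins replication fragments, correlated with the mean of 25 proliferation genes over the 49 mice after group means were removed. Pearson's r was 0.60 (permutation adjusted p of 0.00066 over 33 relations) and Spearman's rho 0.51 (permutation adjusted p of 0.0106), and r was 0.56 without the 2 mice farthest from the median. Within 1 week r was 0.65 and within 12 weeks 0.54, with permutation adjusted p of 0.0762 and 0.314. No other member passed. The share of all genes that run as closely with this mean was not counted.

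**Figure D4:**
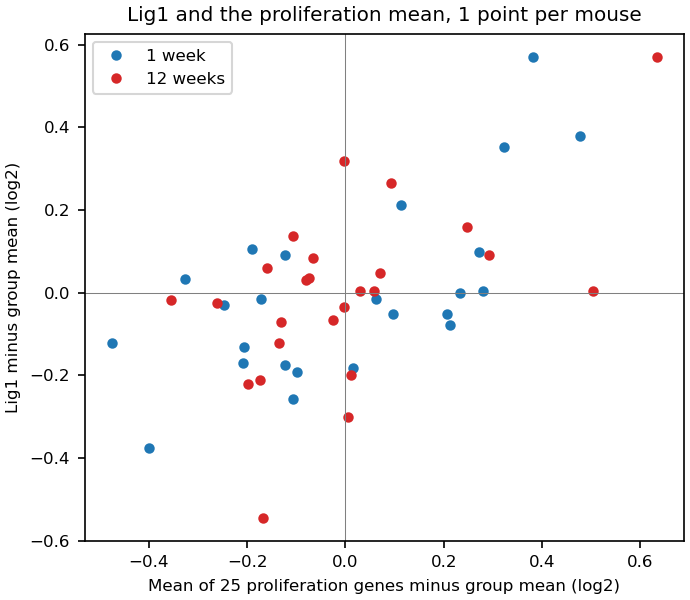
Lig1 against the mean of 25 proliferation genes in log2, both minus their group mean, 1 point per mouse, at 1 week (blue) and 12 weeks (red). The points run from lower left to upper right with a Pearson's r of 0.60 over 49 mice.

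Members also varied together between mice of a group. Of 528 pairs, 61 had a permutation adjusted p under 0.05 for Pearson's r, 38 positive and 23 negative. After quantile normalization 42 passed, 19 positive and 23 negative, and 34 of them were among the 61. The break repair genes Rad50 and Xrcc5 had the highest r, 0.69, with a rho of 0.53 (permutation adjusted p of 0.00176 and 0.0124), 0.59 without the 2 farthest mice, and 0.64 and 0.76 within 1 and 12 weeks. The lowest r, -0.69, was that of Msh6 and Ercc1, a subunit of the nuclease that cuts on the 5′ side of bulky damage. Their rho was -0.64 (permutation adjusted p of 0.00176 for r and 0.00453 for rho). Without the 2 farthest mice r was -0.59, and within 1 and 12 weeks it was -0.80 and -0.59. Neil1 and Ercc5 were at -0.57, with a rho of -0.56 (permutation adjusted p of 0.00505 and 0.00634), -0.48 without the 2 farthest mice, and -0.75 and -0.45 within the harvests. The smallest unadjusted p that 100000 permutations can give is 1e-05. An r of 0.5 or more was found in 4.73% of member pairs and 4.13% of all gene pairs, and one of -0.5 or less in 2.84% and 3.6%, so these shares lie near the background. The array median ran with part of this: r with it was 0.60 for Ercc5 and -0.54 for Ercc1. Of the break repair genes, Atm, Nbn, Xrcc5, Atr, Prkdc, Rad50 and Brca1 were at 0.54, 0.51, 0.51, 0.42, 0.41, 0.33 and 0.26. The rest of that class, Aplf, Brca2 and Xrcc6, were at -0.06, -0.02 and 0.06. With the array median as a covariate 29 pairs passed, and Rad50 with Xrcc5 was at 0.64 and Ercc1 with Msh6 at -0.66.

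**Figure D5:**
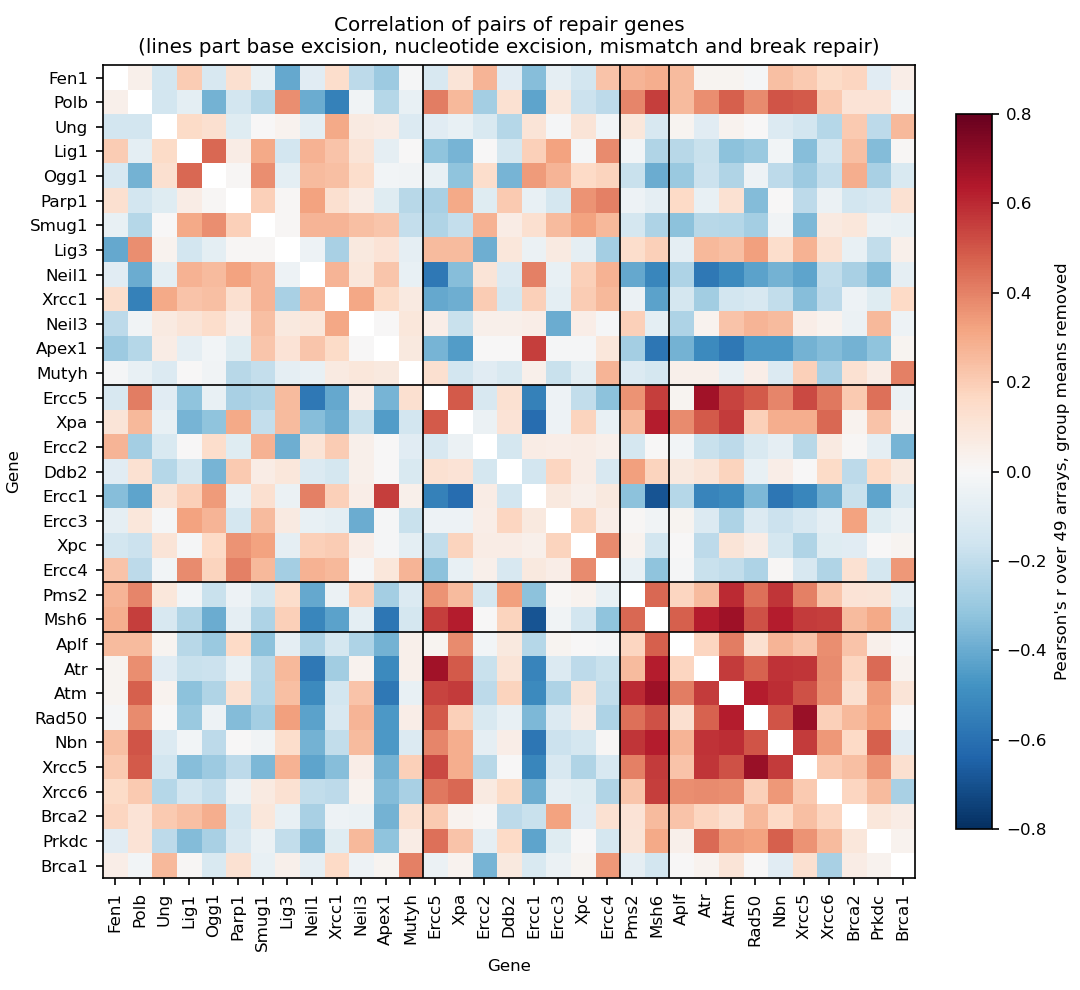
Pearson's r between members over 49 mice after group means were removed, with members ordered by repair class. Rad50 and Xrcc5 reach 0.69 and Ercc1 and Msh6 -0.69.

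A wider list of 97 other repair genes, 80 of them tested, had 1.25% called at 50 ppm in each harvest, against 0.335% and 4.06% of all genes. At 50 ppm 1 fell at 1 week, Polh, the polymerase that copies past damaged bases, by 0.62 ± 0.14 (limma adjusted p of 0.044). At 12 weeks 1 fell, Ddb1, the partner of Ddb2, by 0.34 ± 0.09 (limma adjusted p of 0.0347). Over all genes, the liver covariate left 2 of 49 calls at 50 ppm and 1 week, and the poly-A covariate 1 of 594 at 12 weeks. Whether Polh and Ddb1 kept their calls with these covariates was not looked at. Over the dose ranks at 12 weeks 3 rose and 2 fell, 6.25% against 5.27%. In water mice 2 were higher and 2 lower at 12 weeks, 5% against 13.4%, among them Rpa1, which coats single strands, at -0.33 ± 0.07. The 50 ppm effect differed between the harvests for 5, with 1 higher and 4 lower at 12 weeks, 6.25% against 7.36%, and no gene of the list was called in the other comparisons. The SD of the members within groups ran from 0.07 for Parp1 to 0.64 for Aplf, with a median of 0.26 over all genes.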

How the data were processed

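Total RNA of 49 urinary bladders, preserved in RNAlater and extracted with Trizol and a Qiagen method per the labels' protocols, was hybridised to Affymetrix Mouse430_2 arrays. The authors deposited a linear intensity for each probe set on each array, from GCOS 1.0 per the submitters' processing notes, whose settings were not stated in the labels. The 2% trimmed mean was 500.003 to 500.004 on every array, so the arrays had been scaled before deposit.

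Of 45101 probe sets, 34945 had 1 gene in the platform annotation, 932 several and 9160 none. An offset of 16 was added before log2. Genes above the 40th percentile of their array in at least 4 arrays were tested. limma 3.58.1 (lmFit, eBayes with a trend; R 4.3.3, data.table version 1.17.8) fitted each harvest with a mean per group, and all 49 arrays for comparisons between harvests. Benjamini-Hochberg adjustment ran over all genes, and an adjusted p under 0.05 is a call. Correlations used 100000 permutations within groups (Python 3.11.15, numpy 2.4.6, pandas 2.3.3), and figures matplotlib 3.10.9. The limma and correlation steps were tested on simulated data.

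The members and gene lists were chosen with earlier results of these data known. Values of every array are given for members called in any comparison, members with an unadjusted p under 0.05 at 50 ppm, and the member of smallest p at 50 ppm in each class and harvest. From the wider list at most 4 called genes are named per comparison. Alternatives were other offsets, filters and scaling, 1 fit of all arrays, every probe set, RNA integrity, poly-A signal, liver markers and proliferation genes as covariates, the mouse number as a block, and leaving out each array. Mice with the same label number did not deviate together (mean correlation of -0.0101 at 1 week and 0.0182 at 12 weeks), so the numbers were not used as pairs. No 2 arrays were duplicates. For arrays, the number of mice limits the precision. RNA integrity was missing for 2 arrays, which fits with it leave out. It was 7.2 in mice 3, 4 and 5 at 2 ppm and 1 week. The mean of that group was 8.16, against 9.28 in the 1-week water mice, which ran from 8.8 to 9.7.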

Additional observations from a re-analysis of the deposited data

Results flagged for a closer look

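Single mice stood apart from the rest of their group in 12 of 130 sets of member and group looked at, or 9.23%. The cutoff flags about 1 in 20 sets of independent normal values. These members were picked for calls or small p, and several correlate with one another. The share over all genes was not counted. Below the others lay Mutyh in mouse 1 at 2 ppm and 12 weeks, at 5.91 against 7.02 to 7.43, and Neil1 in mouse 1 at 10 ppm and 12 weeks, at 8.96 against 9.06 to 9.09. Aplf in mouse 2 at 50 ppm and 1 week was at 4.99 against 7.15 to 7.37, and Xpa in mouse 2 at 10 ppm and 1 week at 8.23 against 8.66 to 8.81. Ercc5 had 4 such mice. It was low in 12-week water mouse 2, at 7.16 against 7.83 to 8.06, and in 10 ppm mouse 4 at 12 weeks, at 7.60 against 8.33 to 8.61. It was high in 0.5 ppm mouse 1 at 12 weeks, at 8.74 against 7.80 to 8.06, and in 50 ppm mouse 5 at 1 week, at 8.18 against 7.47 to 7.55. Above the others lay Fen1 in 50 ppm mouse 2 at 12 weeks, at 9.21 against 8.96 to 9.03, and Pms2 in 50 ppm mouse 5 at 12 weeks, at 8.43 against 7.71 to 7.83. Rad50 in 2 ppm mouse 2 at 1 week was at 8.72 against 8.19 to 8.33, and Prkdc in 10 ppm mouse 3 at 1 week at 8.60 against 7.96 to 8.13.

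The 50 ppm effect differed between the harvests by the test of that difference for Neil1, by -0.41, for Fen1, by 1.60, and for Ercc5, by 0.82. For the Lig3 probe set 1425865_a_at it differed by -0.82, and by -0.64 at 10 ppm. The other Fen1 probe set differed by 0.12 ± 0.27 at 50 ppm.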

How the results depend on the processing

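Most counts of called members were small and moved with single arrays. Leaving out 1 array gave 0 to 1 members at 10 ppm and 1 week, 0 to 1 at 0.5 ppm, 0 to 2 at 10 ppm and 0 to 2 at 50 ppm at 12 weeks, 0 to 4 for the 12-week trend, and 2 to 5 between the water groups. For the difference between harvests it gave 0 to 1 at 0.5 ppm, 0 to 1 at 10 ppm and 0 to 5 at 50 ppm. Over all genes such fits called 20 to 437 at 10 ppm and 1 week. At 12 weeks they called 0 to 485, 9 to 331 and 47 to 1617 at 0.5, 10 and 50 ppm. The 12-week trend had 273 to 1892 genes, and the water groups 1335 to 2058. The differences between harvests had 260 to 1007, 108 to 339 and 484 to 1799 at 0.5, 10 and 50 ppm. Without 12-week water mouse 3 and 1-week 50 ppm mouse 2 together, an alternative chosen after seeing the data, the 12-week trend and the 50 ppm difference had 0 members. The poly-A covariate gave 0 for both of these too, where over all genes it called 0 and 92. Of 2 covariates chosen after seeing the data, the liver level gave 0 for the 12-week trend and 0 between the water groups, and the proliferation level 0 between the water groups and 0 for the 50 ppm difference. Over all genes the liver level left 2 of 49 called at 50 ppm and 1 week and 219 of 1954 between the water groups.

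At 50 ppm and 12 weeks an offset of 64 called 1 member, 1 fit of all arrays 2, and the replicate block 1, Aplf. That 1 fit called 1187 of all 14618 genes there, against 594. The 12-week trend had 0 members without the filter, 0 at the 60th percentile, where Aplf was no longer tested, and 3 in 1 fit. The RNA integrity covariate called 1 at 10 ppm and 1 week, and 1 fit called 1 at 0.5 ppm and 12 weeks. Over all genes these 2 settings called 736 and 459, against 114 and 77. Quantile normalization called 1 for the difference at 0.5 ppm. For the difference at 50 ppm, quantile normalization, no filter and RNA integrity each left 1. Counts over all genes moved with the settings too. For the 12-week trend they ran from 0 with the poly-A signal to 1254 with every probe set, against 770. For the difference at 0.5 ppm they ran from 555 without the filter to 864 with every probe set, against 674. For that at 50 ppm they ran from 92 with the poly-A signal to 1918 with every probe set, against 1076. With every probe set, probe sets were counted. The replicate block changed no other count by over 1.5 times, and over all genes it called 637 against 594 at 50 ppm and 12 weeks. Leaving out 1 array gave 47 to 1617 genes there, without water mouse 2 and mouse 1.

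The difference of Aplf at 50 ppm and 1 week was near 0 and changed sign, at -0.05 with an offset of 1, at -0.51 with the liver level as a covariate and from -0.10 to 0.49 without 1 array (-0.01, -0.04, -0.08, -0.05, -0.07 and -0.10 where reversed). Class medians moved with the poly-A covariate at 12 weeks. At 10 ppm they were 0.10 for base excision, 0.01 for mismatch and -0.17 for break repair, and at 50 ppm 0.07 for base excision, 0.07 for nucleotide excision, -0.01 for mismatch and -0.02 for break repair. The proliferation level gave base excision 0.02 at 0.5 ppm and 1 week. The mean over probe sets gave nucleotide excision 0.11 at 0.5 ppm and 0.14 at 50 ppm at 1 week. Leaving out 1 array gave 0.01 to 0.19 for base excision at 0.5 ppm and 1 week, and -0.01 to 0.11 and -0.12 to 0.01 for nucleotide excision at 10 and 50 ppm at 12 weeks. The cause of these shifts was not tested.

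Members correlated with proliferation numbered 0 in either harvest alone and 2 after quantile normalization, and the share of all genes was not counted. Correlated pairs numbered 0 in the 1-week mice, 21 in the 12-week mice, 42 after quantile normalization and 29 with the array median as a covariate, all chosen after seeing the data.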
